A study of Mus musculus with 3 samples.

Results

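The mitochondrial genome transcripts described here are the 37 rows of the gene tables whose symbol begins with mt-, out of 42258 rows in all. The rule that picks them uses the symbol and no measured value. All 37 lie on the mitochondrial chromosome (MT, build GRCm38) in the GENCODE annotation, and they comprise 13 protein-coding genes, 2 ribosomal RNA (rRNA) genes and 22 transfer RNA (tRNA) genes. RNA was sequenced from gastrocnemius and plantaris, calf muscles rich in fast fibres, of male mice. The young library holds pooled RNA of 3 mice aged 24 weeks, labelled strain C57BL/7J, whose diet is not given. The aged control library pools RNA of 6 C57BL/6J mice that were 75 weeks old when a 12-week diet deprived of eicosapentaenoic acid began, and 87 weeks old at its end. Eicosapentaenoic acid (EPA) is a long-chain polyunsaturated fat of the omega-3 class. The aged EPA library pools RNA of 6 C57BL/6J mice of that age whose food contained 1 wt% EPA during those 12 weeks. Each group is therefore 1 library without replicates, age cannot be told apart from the labelled strain or the diet, and no difference between groups could be tested.

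Mitochondrial DNA is a small circle that encodes core subunits of the respiratory chain and of ATP synthase, together with the rRNAs and tRNAs with which mitochondria translate them. Both strands are transcribed as long precursors, in which tRNAs lie between the other genes and mark where the precursor is cut. The remaining respiratory subunits and all proteins that copy, transcribe and process mitochondrial RNA come from nuclear genes. Skeletal muscle depends on this system for sustained contraction, and oxidative fibres hold more mitochondria than glycolytic ones.

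The libraries held 57386394 (young), 57622886 (aged control) and 55969822 (aged EPA) counts. CPM (counts scaled to a total of 1000000) are relative to these totals, and changes are log2 ratios of CPM + 1 unless a ratio of CPM is named. Where 3 values are listed together, they stand in the order young, aged control, aged EPA. A 95% exact Clopper-Pearson interval follows some count ratios, and it covers counting error only, not differences between mice or library preparations. A gene was compared when its mean over the libraries was at least 1 CPM, which 12960 genes and 32 of the 37 mitochondrial genes met, and a change of at least 1.5-fold is called past the fold. The markers of skeletal muscle fibres (8 genes, among them Acta1, Ckm and Mb) were all detected and summed to between 103028 and 118104 CPM.

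Nuclear DNA carries copies of mitochondrial sequence, and a read that matches both places cannot be placed with certainty. A search of GENCODE transcripts found 15 nuclear pseudogenes with at least 90% identity over at least 100 bases of a mitochondrial gene. Of these, 7 were near-identical (at least 99% identity over at least 90% of the pseudogene), and all 7 lie together on chromosome 1 between 24611535 and 24616197 (GRCm38, minus strand). The sequences are shown because they let a reader see how few bases separate gene and copy. Each pair gives 120 bases, 5′ to 3′, of the mitochondrial gene and of its copy, with mismatched bases in capitals. mt-Co2 and Gm28661 are identical throughout, and mt-Co1 and Gm13340 show a less identical pair.
mt-Co2 (chrMT:7013-7132, plus strand): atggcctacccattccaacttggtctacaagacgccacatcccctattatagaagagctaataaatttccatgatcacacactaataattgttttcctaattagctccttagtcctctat
Gm28661 (chr1:24615446-24615565, minus strand): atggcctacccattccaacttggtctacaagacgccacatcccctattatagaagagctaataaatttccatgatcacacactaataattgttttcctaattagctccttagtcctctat
mt-Nd3 (chrMT:9459-9578, plus strand): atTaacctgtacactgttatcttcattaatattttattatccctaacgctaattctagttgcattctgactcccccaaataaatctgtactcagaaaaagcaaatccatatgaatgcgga
Gm28438 (chr1:24613000-24613119, minus strand): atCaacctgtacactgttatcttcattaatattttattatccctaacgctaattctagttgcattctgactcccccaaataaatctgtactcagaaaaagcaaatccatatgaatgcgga
mt-Co1 (chrMT:5328-5447, plus strand): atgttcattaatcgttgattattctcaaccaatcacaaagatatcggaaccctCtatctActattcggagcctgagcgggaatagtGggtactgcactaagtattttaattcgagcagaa
Gm13340 (chr2:22589528-22589647, minus strand): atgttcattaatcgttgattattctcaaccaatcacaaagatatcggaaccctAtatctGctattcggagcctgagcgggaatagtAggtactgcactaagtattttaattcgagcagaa

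The counts of the near-identical copies followed those of their mitochondrial genes. Gm28661, identical to mt-Co2 over its 681 bases, held 650730, 546243 and 562359 counts in young, aged control and aged EPA, which is 99.3%, 100.4% and 99.3% of the counts of mt-Co2. The copies of mt-Atp6 (Gm10925), mt-Co3 (Gm28437), mt-Nd3 (Gm28438) and mt-Nd4l (Gm10222) likewise held between 93.6% and 104.3% of the counts of their mitochondrial genes. Gm28439, identical to 876 bases of mt-Nd4, held between 37.1% and 38.1%, and Gm29216, with 1 mismatch over 483 bases of mt-Co1, between 22.3% and 23.9%. By contrast, Gm13340, whose identity to mt-Co1 is 97.6% over 1545 bases, held between 0.299% and 0.337% of its counts. None of the 8 less identical pseudogenes (identity of 90.7% to 97.6%) exceeded 2.35%.

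**Figure D1:**
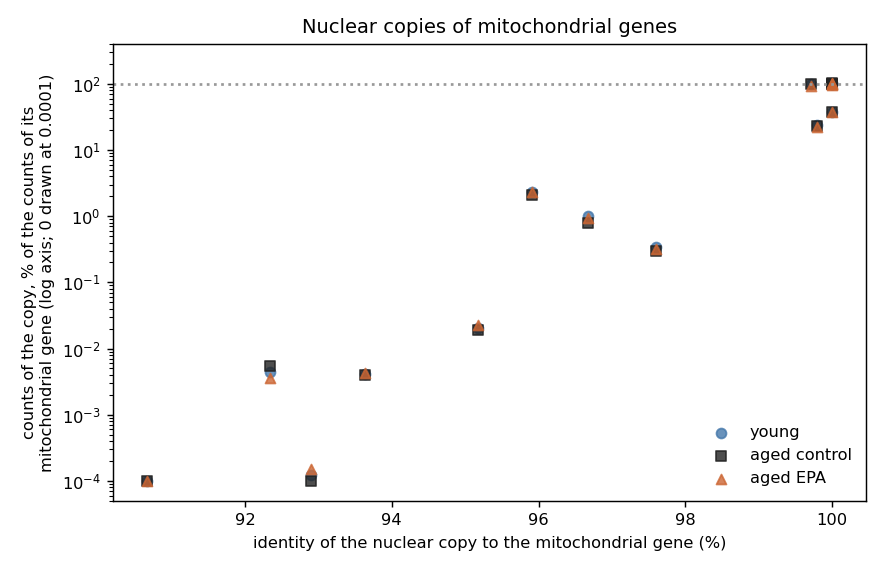
Counts of 15 nuclear pseudogenes as a percentage of the counts of their mitochondrial gene (log axis), against their identity to it in percent, in the 3 libraries. The 7 pseudogenes with at least 99% identity sit between 22.3% and 104.3%, and the 8 others at or below 2.35%.

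A near-identical copy was found for 7 mitochondrial genes (mt-Co1, mt-Co2, mt-Co3, mt-Atp6, mt-Nd3, mt-Nd4l and mt-Nd4). The tRNA genes are shorter than the 100 bases required, so the search could not have found copies of them. Reads from the stretch that gene and copy share cannot be told apart, unless they cover the mismatch in mt-Co1 or mt-Nd3. That stretch is 31.3% of mt-Co1 and 63.6% of mt-Nd4, and between 98.99% and 99.87% of the other 5 genes. How a read that matches both was counted is not given in the sources used here. Levels of these genes are uncertain accordingly. mt-Nd1, mt-Nd5, mt-Nd6, mt-Cytb, mt-Nd2 and mt-Atp8 had no near-identical copy among the annotated transcripts, although the last bases of mt-Atp8 also lie in mt-Atp6. mt-Atp8 starts between mt-Co2 and mt-Atp6, whose copies are neighbours on chromosome 1 (Gm28661 from 24614885, Gm10925 to 24614651). Only annotated transcripts were searched, so a copy of mt-Atp8 between them could have been missed. With the copy's counts added, the change of mt-Co2 stayed at -0.27 in aged control against young and went from 0.10 to 0.09 in aged EPA against aged control. For mt-Nd3, whose copy held the least in aged EPA, the change stayed at -0.24 in the former and went from -0.02 to -0.06 in the latter.

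Mitochondrially encoded genes took 22.7%, 21.2% and 19.6% of all counts in the 3 libraries (95% counting intervals 22.69 to 22.71, 21.24 to 21.26 and 19.62 to 19.64). The share was thus highest in young and lowest in aged EPA. With the near-identical copies added, the shares were 29.1%, 27.1% and 25.2%, in the same order. Protein-coding genes made up nearly all of it, with 22.2%, 20.8% and 19.2% of all counts, while the rRNAs took 0.385%, 0.387% and 0.332% and the tRNAs 0.107%, 0.0972% and 0.0853%. A lower share in pooled bulk RNA cannot tell fewer cells of a type from less mitochondrial RNA per cell. Slow fibre markers summed to 603, 999 and 832 CPM in the libraries in that order. All 7 of them exceeded young in the aged control library, and all 7 were below aged control in the aged EPA library. Glycolytic fast fibre markers summed to 42726, 52965 and 51300 CPM, with 4 of 5 above young in the aged control library, and 3 of 5 higher and 2 lower in aged EPA against aged control. Skeletal muscle fibre markers, which share Pvalb with the glycolytic list, summed to 103028, 110728 and 118104 CPM in the same order. Of these 8 markers, 5 were higher and 3 lower in aged control against young. In aged EPA against aged control, 7 were higher and 1 lower. Red blood cell markers summed to 1502, 552 and 573 CPM. The part of any of these cell types in the mitochondrial values was not tested.

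Complex IV, cytochrome c oxidase, passes electrons to oxygen, and its catalytic subunits are mitochondrially encoded. mt-Co1, the subunit that holds the oxygen-reducing centre (MT, 5328 to 6872), stood at 59045 CPM in the young library, 55405 CPM in the aged control and 54244 CPM in the aged EPA library. It had the highest level of all 37 genes, also per kilobase of gene, at 38217, 35861 and 35110 CPM per kilobase. Next per kilobase came mt-Nd1 (25222, 22690 and 21975) and mt-Cytb (25128, 23242 and 20907), whose order differed between the libraries. This order depends on how reads shared with the nuclear copies were counted. With the copies' counts added, mt-Co1 was still the highest (47362, 44052 and 42946 CPM per kilobase), but mt-Atp6 (42938, 40041 and 37042), mt-Co2 (33278, 27662 and 29489) and mt-Co3 (31637, 27836 and 27348) stood above mt-Nd1 and mt-Cytb in each library. mt-Co2, which receives electrons from cytochrome c, stood at 11423, 9441 and 10123 CPM, lowest in aged control. mt-Co3, a structural subunit, stood at 12494, 10943 and 10717 CPM, highest in young with the aged libraries close together.

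Complex III holds a single mitochondrially encoded subunit, cytochrome b. Its gene mt-Cytb (MT, 14145 to 15288) stood at 28747, 26589 and 23917 CPM in the 3 libraries. This is a step down at each comparison, of -0.11 and then -0.15 on the log2 scale.

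ATP synthase takes a pair of membrane subunits from the mitochondrial genome. mt-Atp6, whose protein forms part of the proton path, stood at 14312, 13484 and 12404 CPM. mt-Atp8, a small subunit of the membrane part, stood at 2722, 2287 and 2033 CPM. Both were highest in young and lowest in aged EPA. The genes overlap by 43 bases (MT, 7927 to 7969) and are known to share an mRNA, so that reads from the overlap could belong to either. The end of mt-Atp8 is shown with the overlap in capitals.
mt-Atp8, last 60 bases (chrMT:7910-7969, plus strand): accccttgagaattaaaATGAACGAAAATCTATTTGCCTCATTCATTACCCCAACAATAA
Per kilobase, mt-Atp8 reached 0.635, 0.566 and 0.547 of the level of mt-Atp6 in young, aged control and aged EPA. With the counts of the copy Gm10925 added to mt-Atp6 alone, these ratios were 0.311, 0.280 and 0.269. A copy of mt-Atp8 without an annotated transcript would not have been counted, so the size of these ratios is uncertain.

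Complex I, NADH dehydrogenase, takes 7 membrane subunits from the mitochondrial genome. mt-Nd1, beside the quinone site, stood at 24137, 21714 and 21030 CPM in the 3 libraries. The proton-pumping subunit genes mt-Nd2, mt-Nd4 and mt-Nd5 stood at 19358, 18917 and 15471 CPM, at 21962, 21254 and 19244 CPM, and at 18163, 18292 and 16242 CPM. In these 3 genes young and aged control lay close together and aged EPA was lower. The small subunit genes mt-Nd3 and mt-Nd4l stood at 1302, 1106 and 1087 CPM and at 2090, 2158 and 1808 CPM, the lowest levels per kilobase of the protein-coding genes in each library when the copies are left out. With the copies' counts added, mt-Nd3 was still the lowest, while mt-Nd4l (14016, 14382 and 12026 CPM per kilobase) stood above mt-Nd5, mt-Nd6 and mt-Atp8. No copy was counted for mt-Atp8, so its place in this order is uncertain.

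**Figure D2:**
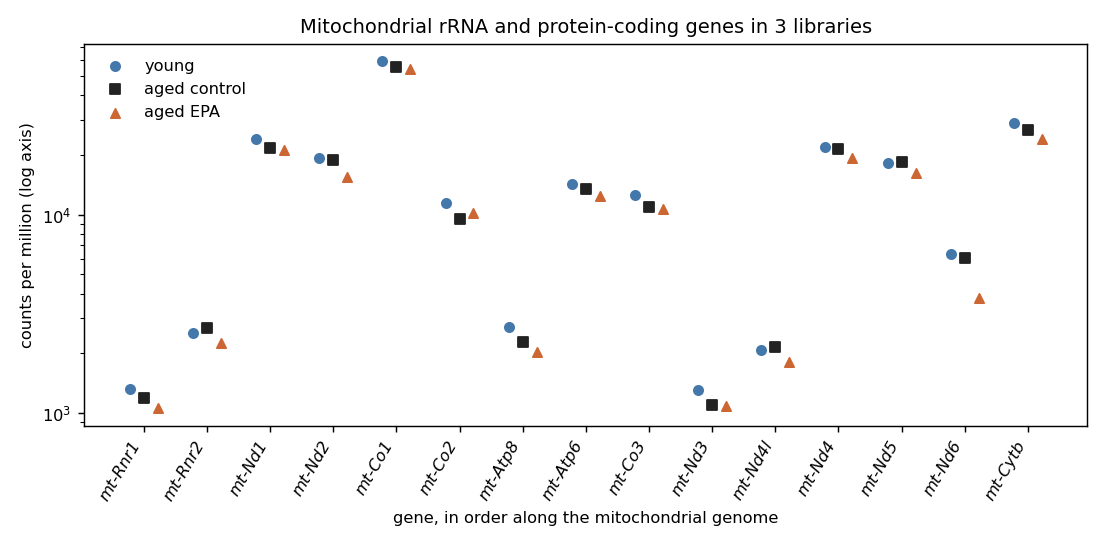
CPM (log axis) of the 2 rRNA and 13 protein-coding genes in the 3 libraries, in order along the mitochondrial genome. mt-Co1 is the highest at 54244 to 59045 CPM, and mt-Nd6 is the protein-coding gene in which aged EPA (3811 CPM) stands farthest below the other libraries.

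mt-Nd6, a membrane subunit of complex I (MT, 13552 to 14070), is the only protein-coding gene on the minus strand of the reference. Its level was 6297 CPM in the young, 6055 CPM in the aged control and 3811 CPM in the aged EPA library, from 361387, 348892 and 213328 counts. The first and second of these lie close together and the aged EPA library stands alone below them. The ratio of CPM of aged EPA to aged control was 0.630 (95% counting interval 0.626 to 0.633) and to young 0.605 (0.602 to 0.608), whereas that of aged control to young was 0.961 (0.957 to 0.966). Its strand sets mt-Nd6 apart in sequence as well: its coding sequence holds 28.1% G and 5.97% C, while the other 12 hold between 5.88% and 16.1% G and between 22.1% and 29.97% C. It meets mt-Nd5 tail to tail, and their annotated ends overlap by 14 bases, shown here in capitals, each gene on its own strand.
mt-Nd6, last 60 bases (chrMT:13552-13611, minus strand): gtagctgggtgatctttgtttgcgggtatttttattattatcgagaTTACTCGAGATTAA
mt-Nd5, last 60 bases (chrMT:13506-13565, plus strand): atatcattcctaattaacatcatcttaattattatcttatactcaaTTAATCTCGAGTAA
Whether the libraries kept the strand of the RNA is not given in the sources used here. Without strand, reads from the precursor of the plus strand genes that runs through the mt-Nd6 region cannot be told apart from mt-Nd6 mRNA. The counts of mt-Nd6 came to 34.7%, 33.1% and 23.5% of those of mt-Nd5, and to 21.9%, 22.8% and 15.9% of those of mt-Cytb, in young, aged control and aged EPA. Relative to both of these mRNAs, mt-Nd6 was lowest in aged EPA.

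The rRNAs form the small and the large subunit of the mitochondrial ribosome. mt-Rnr1, the 12S rRNA (MT, 70 to 1024), stood at 1328, 1191 and 1058 CPM in the 3 libraries. mt-Rnr2, the 16S rRNA (MT, 1094 to 2675), stood at 2527, 2683 and 2263 CPM. The order of the libraries thus differed between them, with mt-Rnr1 highest in young and mt-Rnr2 highest in aged control. Per kilobase, mt-Rnr2 was 1.15, 1.36 and 1.29 times mt-Rnr1. Both rRNAs had lower levels per kilobase than any protein-coding gene, at 1107.7 to 1696 CPM per kilobase against 3124 for the lowest protein-coding value. Whether rRNA was depleted or polyadenylated RNA selected is not given in the sources used here.

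The tRNA genes are short, between 59 and 75 bases, and were counted far less often than the mRNAs. If the libraries did not keep strand, reads on a tRNA gene could also come from the precursor of the opposite strand. mt-Te, the tRNA for glutamate that lies between mt-Nd6 and mt-Cytb, was the highest at 486, 439 and 370 CPM. It was followed by a neighbouring trio on the minus strand upstream of mt-Co1: mt-Tc (cysteine) at 191, 167 and 149.9 CPM, mt-Tn (asparagine) at 131, 118 and 105 CPM, and mt-Ty (tyrosine) at 103, 88.6 and 75.9 CPM. These 4 minus strand genes were highest in young and lowest in aged EPA. The highest plus strand tRNA, mt-Tl1 (leucine, between mt-Rnr2 and mt-Nd1), stood at 63.3, 66.2 and 67.4 CPM, and its counting intervals included equal levels for aged control against young (ratio 1.05, 0.999 to 1.09) and for aged EPA against aged control (1.02, 0.974 to 1.07). mt-Te came to 7.71%, 7.26% and 9.72% of the counts of its neighbour mt-Nd6, highest in aged EPA. The other compared tRNA genes (mt-Ta, mt-Tm, mt-Ti, mt-Td, mt-Tg, mt-Ts1, mt-Tp, mt-Tw, mt-Tq, mt-Tr, mt-Th and mt-Tl2) lay between 1.25 CPM (mt-Tl2 in aged EPA) and 23.03 CPM (mt-Ta, the alanine tRNA, in aged control). Of the 22 tRNA genes, 17 passed the 1 CPM filter. The other 5 were mt-Tf, mt-Tv, mt-Tk, mt-Tt and mt-Ts2, all at or below 66 counts. mt-Tk (lysine) had 54, 58 and 50 counts, mt-Tt (threonine) 52, 48 and 52, and mt-Tv (valine) 24, 17 and 22. mt-Tf (phenylalanine) had 2, 6 and 6 counts, near the limit of 3 counts that a count of 0 allows (0.0523, 0.0521 and 0.0536 CPM).

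A pair of serine tRNA genes differed most between the libraries, and their sequences are printed with the bases that overlap a neighbouring gene in capitals. mt-Te is added because it lies next to mt-Nd6, and it overlaps no gene.
mt-Ts1 (chrMT:6870-6938, minus strand): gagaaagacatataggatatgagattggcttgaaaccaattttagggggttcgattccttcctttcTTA
mt-Ts2 (chrMT:11613-11671, plus strand): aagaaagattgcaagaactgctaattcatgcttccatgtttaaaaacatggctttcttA
mt-Te (chrMT:14071-14139, minus strand): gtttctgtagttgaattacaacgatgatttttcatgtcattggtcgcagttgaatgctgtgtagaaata
mt-Ts1, which abuts the end of mt-Co1 on the opposite strand with an overlap of 3 bases, had 429 counts in young but 114 and 95 in the aged control and aged EPA libraries (7.48, 1.98 and 1.70 CPM). Both aged libraries lay below young, with a ratio of 0.265 for aged control (95% counting interval 0.213 to 0.326) and 0.227 for aged EPA (0.180 to 0.284). mt-Co1, by comparison, had ratios of 0.938 and 0.919 to young. mt-Ts1 lies between mt-Co1 and mt-Co2, whose copies Gm29216 and Gm28661 are neighbours on chromosome 1. The search could not find a copy of mt-Ts1, so whether its reads match one there was not tested. mt-Ts2, which overlaps mt-Tl2 by 1 base, had 1, 1 and 66 counts. The ratio of aged EPA to aged control was 67.9, with a 95% counting interval of 11.8 to 2724. Its neighbours mt-Th (97, 105 and 110 counts) and mt-Tl2 (98, 114 and 70 counts) differed by far less. mt-Ts2 failed the 1 CPM filter and is in no count of compared genes.

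**Figure D3:**
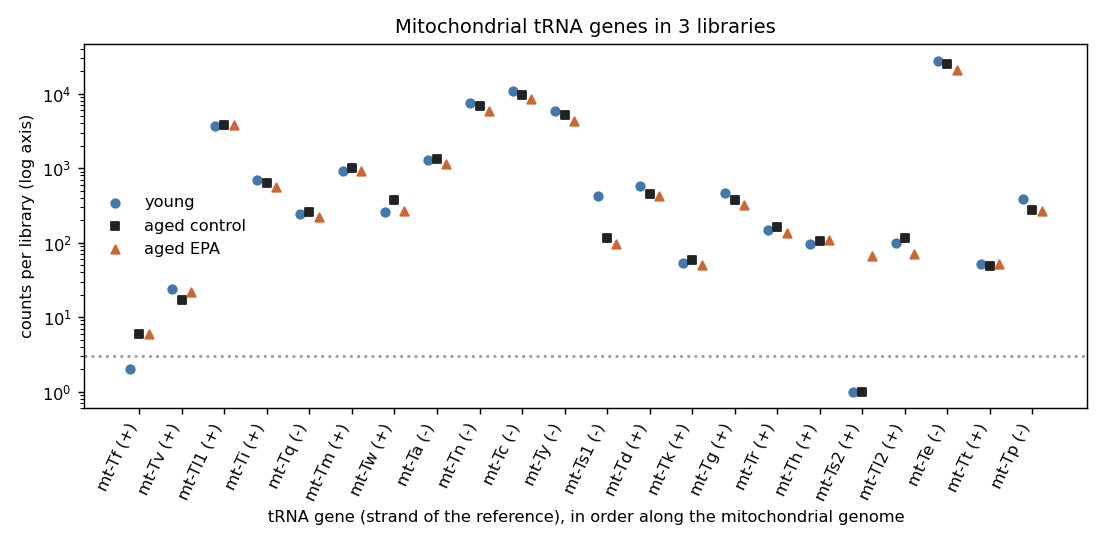
Counts per library (log axis) of the 22 tRNA genes in order along the mitochondrial genome, with the strand of the reference in brackets, in the 3 libraries. The dotted line marks 3 counts. mt-Te is the highest at 20734 to 27874 counts, mt-Ts1 is higher in young (429) than in both aged libraries, and mt-Ts2 is above the line in aged EPA alone (66).

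The first comparison sets the aged control library against the young one and addresses age, although the labelled strain differs too and what the young animals ate is unknown. Of the 13 protein-coding genes, 11 were lower in the aged control library and 2, mt-Nd4l (0.05) and mt-Nd5 (0.01), were higher. mt-Nd5 was lower instead when totals left out mitochondrial genes. The median change was -0.09, against -0.02 over all 12960 genes, and the values ran from -0.27 (mt-Co2) to 0.05. Complex IV genes lay between -0.27 and -0.09 and ATP synthase genes at -0.25 (mt-Atp8) and -0.09 (mt-Atp6), whereas the 7 complex I genes had a median of -0.05. No protein-coding gene was past the fold. Among the 32 compared members, 21 were lower and 11 higher, while of all 12960 genes 6939 were lower and 6020 higher. Of these members mt-Ts1 (-1.51) alone was past the fold, where 2.63% of all genes compared were past it downward and 2.58% upward. The 17 compared tRNA genes had a median of -0.13 with 9 lower and 8 higher, among them mt-Tp (proline, -0.41) and mt-Tw (tryptophan, 0.42). tRNA genes on the plus strand had a median of 0.07 (6 of 9 higher) and those on the minus strand -0.17 (6 of 8 lower). Whether the libraries kept strand is not given, so this split by annotated strand may not separate transcripts of each strand.

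The second comparison, of the 2 diets at the same age, addresses the effect of dietary EPA on aged muscle. Here 12 of 13 protein-coding genes were lower in aged EPA and mt-Co2 (0.10) was higher. These signs were the same under each scaling tried and with the copies' counts added. Other pseudocounts and filters could not have changed them. The median was -0.14, against 0.01 over all 12960 genes, of which 6090 were lower and 6869 higher. mt-Nd6 (-0.67) was past the fold, the only one of the 32 compared members, where 1.69% of all genes were past it downward and 1.83% upward. The next were mt-Nd2 (-0.29) and mt-Nd4l (-0.26), and the log2 ratio of mt-Nd6 lay at -0.54 relative to the median of the other 12. mt-Co1 and mt-Co3 of complex IV lay at -0.03, while all 7 complex I genes were lower, with a median of -0.17. With the copies left out, complex IV genes made up 36.5% of mitochondrial protein-coding counts without EPA and 39.1% with EPA. Complex I genes made up 43.1% and 41.0%. mt-Co1, mt-Co2 and mt-Co3 all have near-identical copies, but of complex I only mt-Nd3, mt-Nd4l and mt-Nd4 do. These shares, and which complex took more, therefore depend on how shared reads were counted. Both rRNAs were lower, mt-Rnr1 at -0.17 and mt-Rnr2 at -0.25. Of the 17 compared tRNA genes, 15 were lower (median -0.16). These were 7 of 9 on the plus strand (median -0.12) and all 8 on the minus strand (median -0.16), with mt-Te at -0.25. The split is again by annotated strand and may not separate transcripts of each strand. mt-Tl2 (leucine) had the lowest tRNA change at -0.40, with a counting interval of its log2 count ratio from -1.11 to -0.22.

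**Figure D4:**
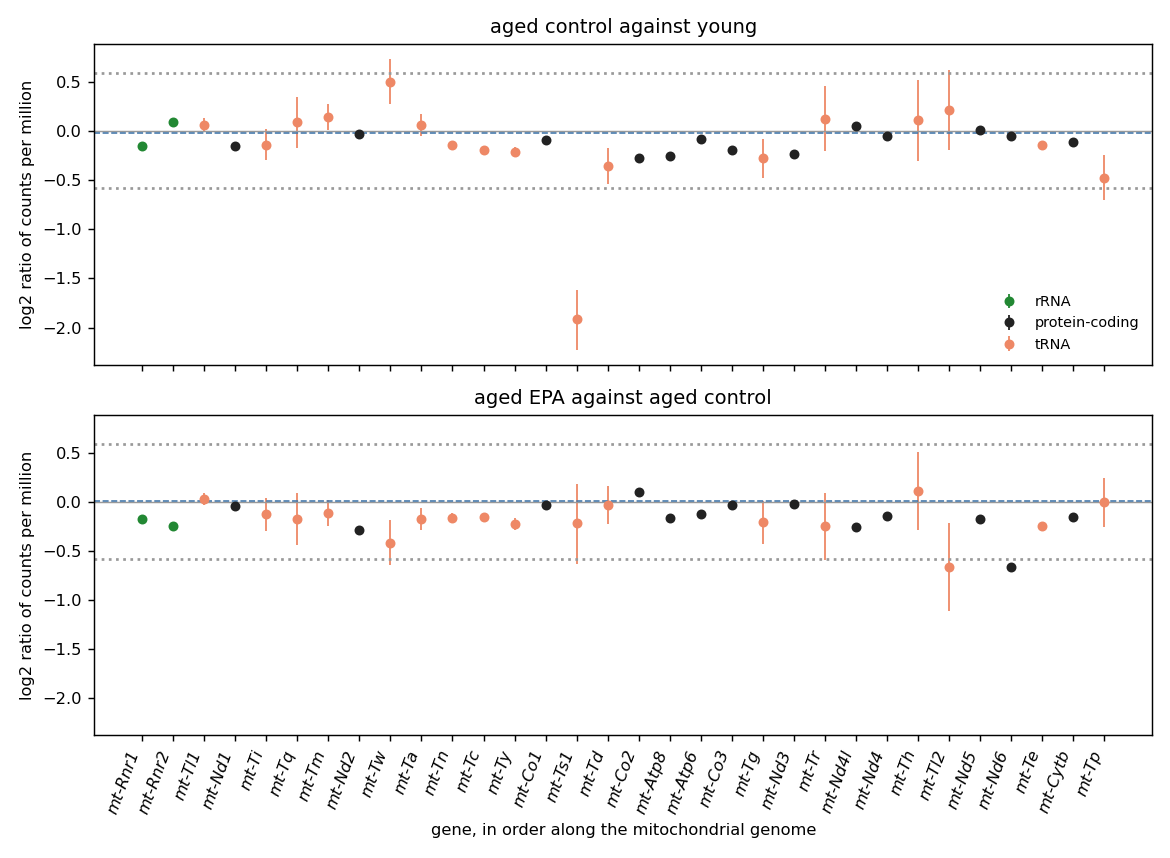
Log2 ratios of CPM with 95% counting intervals for the 32 compared mitochondrial genes in order along the genome, coloured by class, for aged control against young (top) and aged EPA against aged control (bottom). Dotted lines mark 1.5-fold and the dashed line the median change over all genes. mt-Ts1 stands alone below the line in the upper panel. In the lower panel mt-Nd6 and mt-Tl2 lie below it. mt-Tl2 is at -0.66 as a ratio of CPM and at -0.40 with 1 CPM added.

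Aged EPA was also set against young, a comparison in which age and labelled strain differ together and the diets cannot be compared. All 13 protein-coding genes were lower in aged EPA than in young, between -0.12 (mt-Co1) and -0.72 (mt-Nd6), with a median of -0.21 against -0.01 over all genes. mt-Atp8 followed at -0.42. Of all 12960 genes, 6598 were lower and 6360 higher. Past the fold were mt-Nd6 and mt-Ts1 (-1.65), 2 of 32 compared members, where 2.53% of all genes were past it downward and 2.66% upward. mt-Co2 lay at -0.17 here and at -0.27 in aged control against young, comparisons that share the young library.

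Nuclear genes that serve the mitochondrial genome were described from lists by their function. For comparison, of all 12960 genes 6939 were lower in aged control against young, and 6869 were higher in aged EPA against aged control. Genes of mitochondrial DNA transcription had a median of -0.16 in aged control against young, with 8 of 9 lower, and of 0.06 in aged EPA against aged control, with 7 of 9 higher. Polrmt, the mitochondrial RNA polymerase, stood at 21.6, 24.7 and 25.8 CPM in the 3 libraries. Tfam, which packages mitochondrial DNA and opens its promoters, stood at 31.2, 28.8 and 28.7 CPM, and Tfb2m, a promoter-melting factor, at 44.3, 41.3 and 43.0 CPM. Neither the polymerase nor these factors were past the fold. Mterf4, needed for ribosome assembly, was higher in aged EPA, at 7.32, 5.17 and 9.17 CPM (0.72).

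Genes of mitochondrial RNA processing and stability had medians of -0.01 and -0.04 in the same comparisons, with 14 and 18 of 26 lower and none past the fold. Lrpprc, which stabilises mitochondrial mRNAs, stood at 81.7, 88.9 and 87.3 CPM, Grsf1, of the RNA granules, at 99.2, 101.6 and 98.0 CPM, and Fastk, which has a mitochondrial form that acts on the mt-Nd6 mRNA, at 101.7, 102.3 and 111.8 CPM.

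Genes that modify or charge mitochondrial tRNAs had medians of -0.08 and 0.03 over 29 compared genes. Past the fold were Cdk5rap1, a tRNA-modifying enzyme, at 12.9, 7.84 and 11.4 CPM, and Pars2, the prolyl-tRNA synthetase, at 1.85, 3.11 and 0.822 CPM (-1.17 in aged EPA against aged control). Iars2 and Lars2, the isoleucyl- and leucyl-tRNA synthetases, stood at 52.7, 61.8 and 63.3 CPM and at 45.7, 49.9 and 53.0 CPM. Genes that replicate and maintain mitochondrial DNA had medians of -0.10 and 0.10 over 16 compared genes. Slc25a4, the ADP/ATP carrier of muscle, stood at 2777, 2445 and 2744 CPM, and Lig3, the mitochondrial DNA ligase, at 21.97, 11.8 and 15.8 CPM (-0.84 in aged control against young).

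Nuclear subunits of the complexes that also hold mitochondrial subunits had medians below 0 in aged control against young, as did their mitochondrial partners. In aged EPA against aged control the nuclear medians were slightly above 0 and those of the partners below it. When totals left out mitochondrial genes and their copies, complexes I and IV stood at 0.04, ATP synthase at 0.005 and complex III at -0.007. The list of genes that modify or charge tRNAs stood at -0.0009 with those totals. Complex I had 33 of 36 nuclear genes lower in aged control (median -0.22) and 27 of 36 higher in aged EPA (median 0.07). Past the fold in aged control against young were its accessory subunits Ndufc1, at 99.4, 54.9 and 82.6 CPM, and Ndufa5, at 108, 67.9 and 73.8 CPM, both lowest in aged control. Complex IV had 12 of 12 lower (-0.32) and then 11 of 12 higher (0.08), with Cox4i1, a regulatory subunit, at 340, 226 and 360 CPM, past the fold in both comparisons (-0.59 and 0.67). ATP synthase had 14 of 15 lower (-0.20) and then 11 of 15 higher (0.04), with Atp5d, the delta subunit, at 308, 254 and 388 CPM. Complex III had 7 of 9 lower (-0.13) and then 7 of 9 higher (0.03). The 4 genes of complex II, which has no mitochondrially encoded subunit, had medians of -0.02 and -0.01. In aged EPA against aged control, 1 gene each of complex IV (Cox4i1) and ATP synthase (Atp5d) was past the fold upward. Both comparisons share the aged control library, so any deviation of that library enters them with opposite signs.

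**Figure D5:**
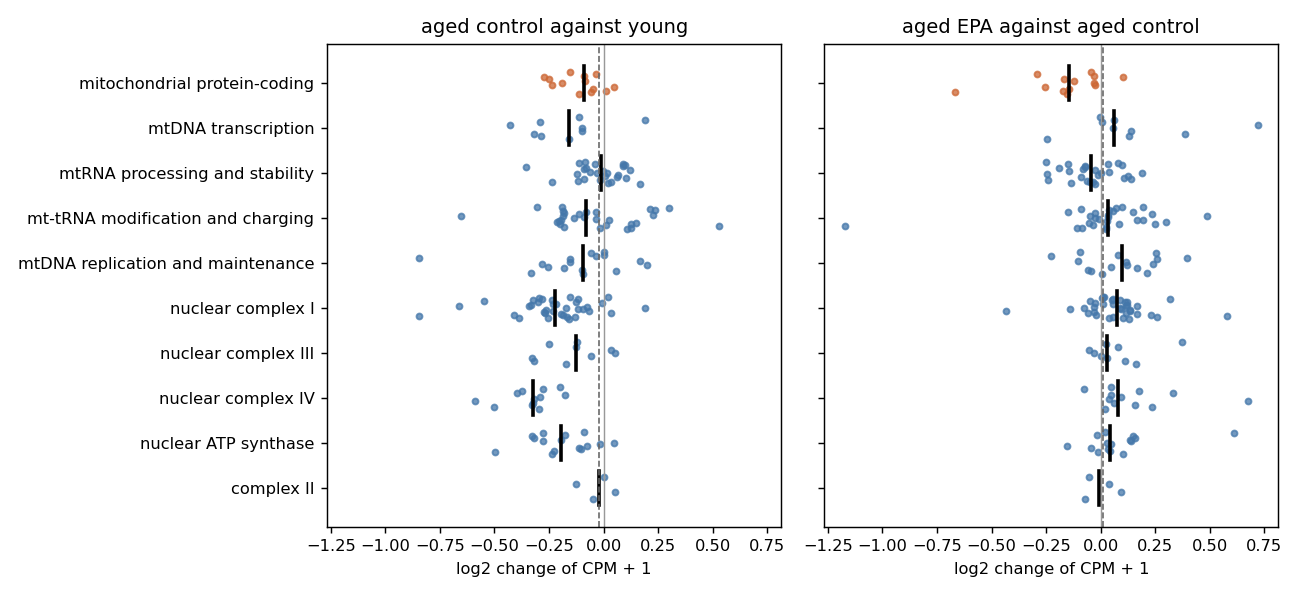
Log2 changes of CPM + 1 for the 13 mitochondrial protein-coding genes and for the compared nuclear genes of each list, in aged control against young (left) and aged EPA against aged control (right). Points are genes, black bars medians and the dashed line the median over all genes. Nuclear complex I, III, IV and ATP synthase genes have medians between -0.32 and -0.13 on the left and between 0.03 and 0.08 on the right, where the mitochondrial genes have a median of -0.14.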

How the data were processed

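RNA was sequenced from 3 libraries of pooled muscle RNA, and the symbol rule for the members and the gene lists were set with earlier results of these data known. Per the submitters' processing notes, HISAT2 2.1.0, StringTie 1.3.4d and R 3.5.0 were used with mouse build GRCm38. The counting step and annotation are not given in the sources used here. The deposited values are CPM per gene, as the authors calculated them. They were divided by 1 of 5 totals, between 56034275 and 57687235, that changed from row to row. Multiplying by the fitting total gave whole counts for 100% of 57851 values above 0 (largest distance from a whole number 3.0268e-09). These counts were divided by each library's own total, which moved deposited CPM by between -2.98% and 2.84%. Recovery and ratios were tested on simulated data. With 1 library a group no test was run. Gene positions and sequences are from GENCODE M21 (GRCm38), and all 37 identifiers matched. Nuclear copies were searched with BLAST 2.17.0 (E-value 1e-10). Named nuclear genes were drawn from the 3 most abundant genes of a list and up to 4 genes past the fold. Python 3.11.15, pandas 2.3.3 and scipy 1.17.1 were used. Alternatives were deposited CPM, other pseudocounts, filters, scalings and 2-fold.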

Additional observations from a re-analysis of the deposited data

How the results depend on the processing

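No paired analysis was possible because each group is 1 library. Counting error is small for the mRNAs, so that small shifts exceed it, and depth limits mt-Tf, mt-Tv and mt-Ts2. The median change of the 13 protein-coding genes in aged control against young was -0.11 with deposited CPM, -0.0708 with a trimmed mean of M values, -0.0711 with median of ratios, -0.12 with the total without mitochondrial genes, -0.10 without the 20 most abundant genes, and, in settings chosen after seeing the data, -0.13 with the total without mitochondrial genes and nuclear copies and -0.10 with copies added. In aged EPA against aged control it was, in the same order, -0.16, -0.16, -0.16, -0.17, -0.17, -0.18 and -0.15. In aged EPA against young it was -0.23 with deposited CPM, -0.20 with a trimmed mean of M values, -0.27 without mitochondrial genes, -0.24 without the 20 most abundant genes and -0.29 without mitochondrial genes and copies. The sign was the same in all of these. With no filter mt-Ts2 was 1 gene past the fold upward in aged EPA against aged control and against young. With a pseudocount of 0.1, 2 genes were past it downward in aged EPA against aged control (mt-Nd6 and mt-Tl2), and at 2-fold 0. With a mean of at least 5 CPM, which leaves out mt-Ts1, aged control had 0 genes past it downward against young and aged EPA had 1, as it had at 2-fold. Of all genes that met 5 CPM, 203 and 186 were past it downward in these comparisons. At 2-fold, 100 of the 12960 genes were in aged EPA against young. Deposited CPM gave shares of 21.2% for aged control and 19.7% for aged EPA, and adding copies gave 29.1%, 27.1% and 25.2%. mt-Nd6 lay -0.59 and -0.57 from the median of the other 12 in aged EPA, set against aged control and against young, with deposited CPM, 0.0575 in aged control against young, and 0.0518 there with copies added. Of 9 nuclear lists, 4 in place of 2 had a median below 0 in aged EPA against aged control when totals left out mitochondrial genes and copies. Without length scaling, 34 of 45 ranks of rRNA and protein-coding genes within a library moved. No change past the fold reversed its sign, but none of these settings shifts values enough to have done so.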

Other observations

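The mitochondrial mRNAs also differ in how their reading frames begin and end. In the reference sequence 9 of the 13 protein-coding genes start with atg, while mt-Nd1 starts with gtg, mt-Nd2 with ata, mt-Nd3 with att and mt-Nd5 with atc, codons that mitochondria are known to use as starts. The genes mt-Co3, mt-Nd4 and mt-Cytb end on a single t after the last whole codon, where addition of the poly(A) tail is known to complete the stop codon. These 3 genes had changes of -0.03, -0.14 and -0.15 in aged EPA against aged control, inside the range of the other protein-coding genes.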
